A study of Danio rerio with 20 samples.

Results

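The transcripts described here were selected because their level differed from untreated zebrafish larvae at 10 mg/l of lithium cobalt oxide (LCO) nanosheets while their mean at 1 mg/l stayed close to the untreated mean. They number 67 of the 57775 transcripts measured, with 2 higher and 65 lower at 10 mg/l. Members were selected on deposited TPM, a length-corrected share of a library that adds up to the same total in each. A transcript needed a mean of at least 1 TPM over all 20 libraries, which 28682 transcripts had. All 5 libraries at 10 mg/l had to lie above, or all 5 below, all 5 untreated libraries. The log2 ratio of the 10 mg/l mean to the untreated mean had to be at least 0.4 in size, and that of the 1 mg/l mean at most 0.2. The list was to stop at 300 transcripts and did not reach that number.

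Each library came from a pool of 20 whole larvae of strain WT, genotype wild type, taken at 10 days post fertilization after a 48 hour exposure. The groups of 5 libraries were LCO 10 mg/l (replicates 1, 2, 3, 4 and 6), LCO 1 mg/l (1, 2, 3, 5 and 6), Ion (1, 2, 3, 4 and 6) and untreated larvae (1 to 5). The labels give neither the makeup nor the dose of Ion. All larvae, untreated ones included, had been fed a commercial larval powder from day 5. The labels do not say whether pools shared parents or tanks, so the p-values reflect only how these pools varied, which may be technical.

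Lithium cobalt oxide is the layered cathode material of many rechargeable batteries, and in water it can release lithium and cobalt ions, which is the usual reason for running an ion treatment beside the particle. Cobalt is a metal that in animals is known to stabilise the hypoxia-inducible transcription factors and to compete with other metal ions. A whole-larva library mixes gut, liver, muscle, nervous system, skin and every other tissue, so fewer cells of a type and less RNA per cell cannot be told apart. A gene usually gives several transcripts, and the files report each separately. The files do not pair the transcript identifiers with gene names, and 0 of the 57775 identifiers were found in the gene tables used here, so the transcripts are given by identifier and length and no role is assigned to them.

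Libraries held 24950529 to 47031868 estimated counts at LCO 10 mg/l, 30439905 to 52060281 at LCO 1 mg/l, 35012696 to 49469173 under Ion and 32568890 to 63120039 in untreated larvae. The first principal component of the 28682 transcripts with a mean of at least 1 TPM held 22.7% of the variance. A library is said here to stand apart when its score lay above 0, the side away from the untreated libraries. While 12 libraries scored -44.8 to -13.8, 8 exposed libraries, at 21.7 to 66.9, stood apart. These were LCO 10 mg/l replicates 2, 3, 4 and 6, LCO 1 mg/l replicates 1 and 2, and Ion replicates 4 and 6, with 0 of the 5 untreated libraries. A single transcript that is not in the set, ENSDART00000182970.1, took 25.1% of all TPM in LCO 10 mg/l replicate 2 and 8.26% in replicate 3. It took 4.20% in untreated replicate 4, 1.89% in LCO 1 mg/l replicate 2, and 0.741% to 1.1798% in the other 16 libraries. TPM sums to the same total in each library, so a share taken by a few transcripts lowers the rest. The 100 most abundant transcripts held 60.6% of TPM in LCO 10 mg/l replicate 2, and 41.1% to 47.0% in the other 4 libraries at that dose. The median transcript stood at 69.1% of its untreated mean in replicate 2, and at 91.9% to 109.5% in those 4.

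The set is a small remainder of the transcripts that differed at 10 mg/l. Among the 28682 transcripts, 1572 (5.48%) lay below all untreated libraries in every 10 mg/l library, and 127 (0.443%) lay above. With the ratio threshold, 1384 lower and 101 higher transcripts were left. Of these, 1319 lower and 99 higher ones also had a 1 mg/l mean beyond 0.2 in the same direction, and 0 in the opposite one. The 65 lower transcripts are therefore 4.70% of the lower ones at 10 mg/l, and the 2 higher ones are 1.98% of the higher ones. With the doses exchanged, the same rule gave 121 higher and 26 lower transcripts. With Ion in place of LCO 10 mg/l it gave 62 higher and 5 lower ones.

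Libraries at 10 mg/l, at 1 mg/l and untreated all entered the rule. Differences of both doses from untreated larvae, and between the doses, are therefore a description and carry no test of the set. The rule used the Ion libraries only through the mean over 20, but the comparison of Ion with untreated larvae shares the untreated libraries with it.

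The thresholds cut through a continuous range. The lower transcripts nearest the 10 mg/l threshold had log2 ratios of -0.40024 and -0.40464 inside it, and the nearest outside had -0.39989 and -0.39407. At the 1 mg/l bound, the nearest inside had -0.199 and -0.196 and the nearest outside -0.201 and -0.202. At the floor on abundance, means of 1.1 and 1.16 TPM were inside, and 0.995 and 0.944 TPM outside. For higher transcripts the smaller 10 mg/l ratio inside was 0.605 and the nearest outside 0.329. The larger 1 mg/l ratio inside was 0.198, with 0.207 and 0.243 outside.

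The higher transcript with the larger ratio was ENSDART00000183797.1, 546 bases long. It had 6.20, 6.74, 5.04, 6.26 and 6.09 TPM at LCO 10 mg/l, against 2.85, 0.636, 1.5, 2.54 and 3.34 TPM in untreated larvae. At LCO 1 mg/l it had 2.56, 3.33, 3.42, 1.86 and 1.29 TPM, and under Ion 5.12, 2.89, 4.78, 3.36 and 4.10 TPM. The 10 mg/l pools were tightly grouped, at 6.07 ± 0.624 TPM, against 2.17 ± 1.09 TPM in untreated larvae (SD, n = 5 each), and they lay above every 1 mg/l library. They overlapped with Ion, which averaged 4.05 ± 0.938 TPM (SD, n = 5), since Ion replicate 1 exceeded LCO 10 mg/l replicate 3.

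Estimated counts behind these values were 48 to 98 per library at LCO 10 mg/l and 7.1 to 72 in untreated larvae. In edgeR's quasi-likelihood test over 39355 transcripts, the log2 fold change of LCO 10 mg/l over untreated was 1.55 (SE 0.34, Benjamini-Hochberg adjusted p = 0.0122). The direct comparison of LCO 10 mg/l with LCO 1 mg/l gave 1.47 (SE 0.34, adjusted p = 0.0893), and that with Ion gave 0.78 (adjusted p = 0.373), so neither passed. Ion over untreated was also 0.78 (adjusted p = 0.467).

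The other higher transcript, ENSDART00000140535.2, is 743 bases long and lay close to the untreated range. It had 2.46, 1.96, 2.36, 2.99 and 2.66 TPM at LCO 10 mg/l, against 1.32, 1.82, 1.65, 1.52 and 1.86 TPM in untreated larvae. The gap between the groups was that between 1.96 and 1.86 TPM. Its highest value of all, 3.02 TPM, was in LCO 1 mg/l replicate 1, while the other libraries at that dose had 0.989 to 2.02 TPM. The Ion libraries ran from 1.25 to 2.48 TPM. Its log2 fold change of LCO 10 mg/l over untreated, 0.67 (SE 0.23), did not pass the edgeR test (adjusted p = 0.0924).

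**Figure D1:**
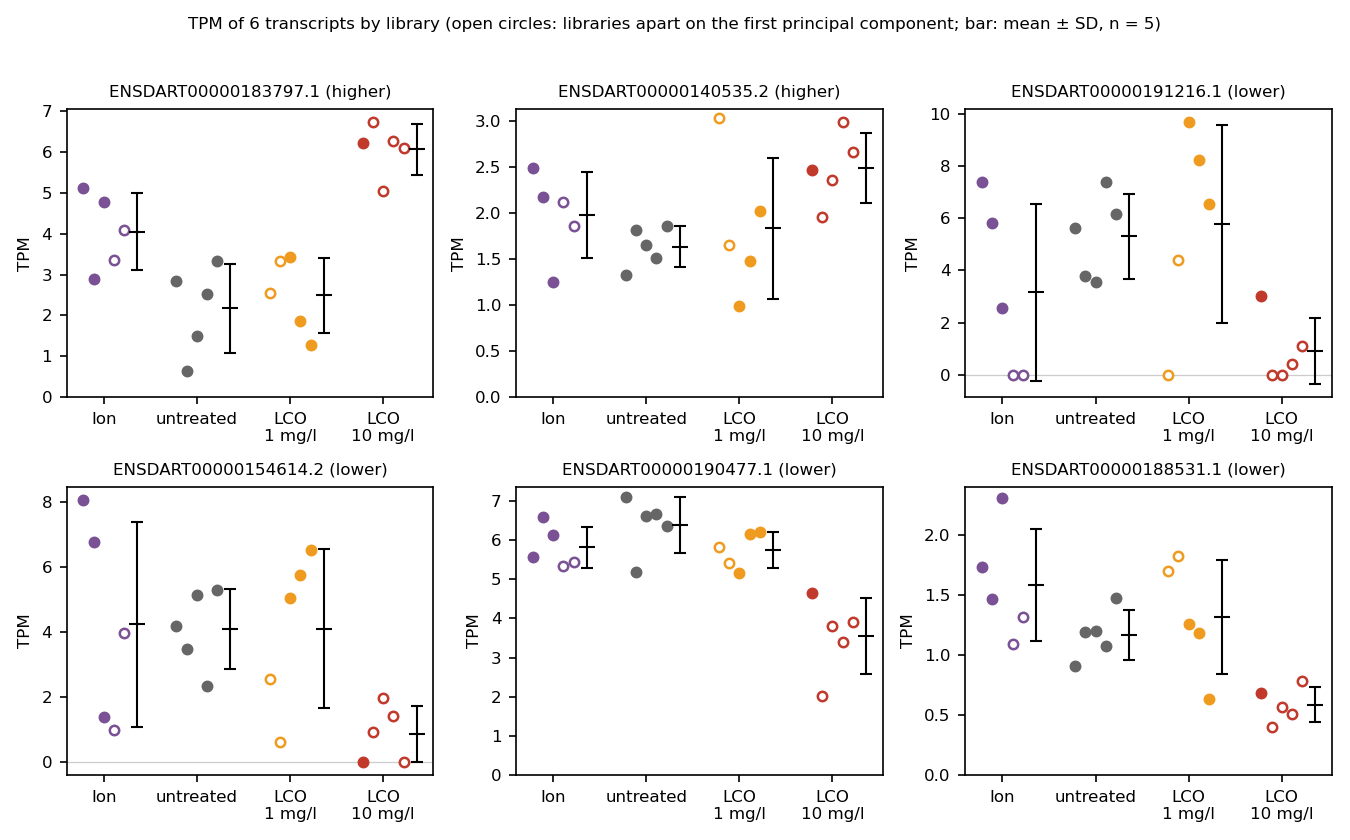
TPM (vertical axes) of 6 transcripts in each of 20 libraries, by group, with the mean ± SD of 5 libraries beside each group and open circles for the 8 libraries apart on the first principal component. The higher transcript ENSDART00000183797.1 lies between 5.04 and 6.74 TPM at 10 mg/l, while ENSDART00000191216.1 and ENSDART00000154614.2 reach 0 in some pools and are as high as untreated larvae in others.

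The 65 lower transcripts stood at a median of 68.8% of their untreated mean at 10 mg/l. Their log2 ratios of LCO 10 mg/l to untreated had a median of -0.54 and ran from -2.55 to -0.40, against a median of -0.06 over all 28682 transcripts. Most of them differed modestly, with 42 of 65 between -0.6 and -0.4 and 10 of 65 at -1 or below. The separation from the untreated range was narrow. The lowest untreated library exceeded the highest 10 mg/l library by less than 1.1 times in 41 transcripts and by 1.5 times in 0, with a median of 1.07 times.

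The difference of means was larger than the larger of the 2 group SDs in all 65, and larger than 2 of those SDs in 27. The rule separates these same libraries, so it largely sets these counts, and nothing is read from them. In deposited TPM, libraries at 10 mg/l varied more than untreated ones, with a median coefficient of variation of 23.8%, against 11.5% in untreated larvae. This includes replicate 2, where 1 transcript outside the set took 25.1% of TPM. The part of that share in the spread was not tested, and the rule may favour even untreated values. The rule itself sets the 10 mg/l mean below the untreated and 1 mg/l means in all 65. The 10 mg/l mean was also below the Ion mean in all 65, which the choice of low 10 mg/l values favours. The untreated mean was the highest of the 4 group means in 44. The edgeR test called 21 of the 64 lower transcripts that passed its filter on low counts, beside a background of 3.99% of all 39355 tested called lower. It called 1 of the 2 higher ones, beside 2.28% called higher. The transcript left out by the filter, ENSDART00000131946.2, is 128 bases long and is named here after its values were seen.

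**Figure D2:**
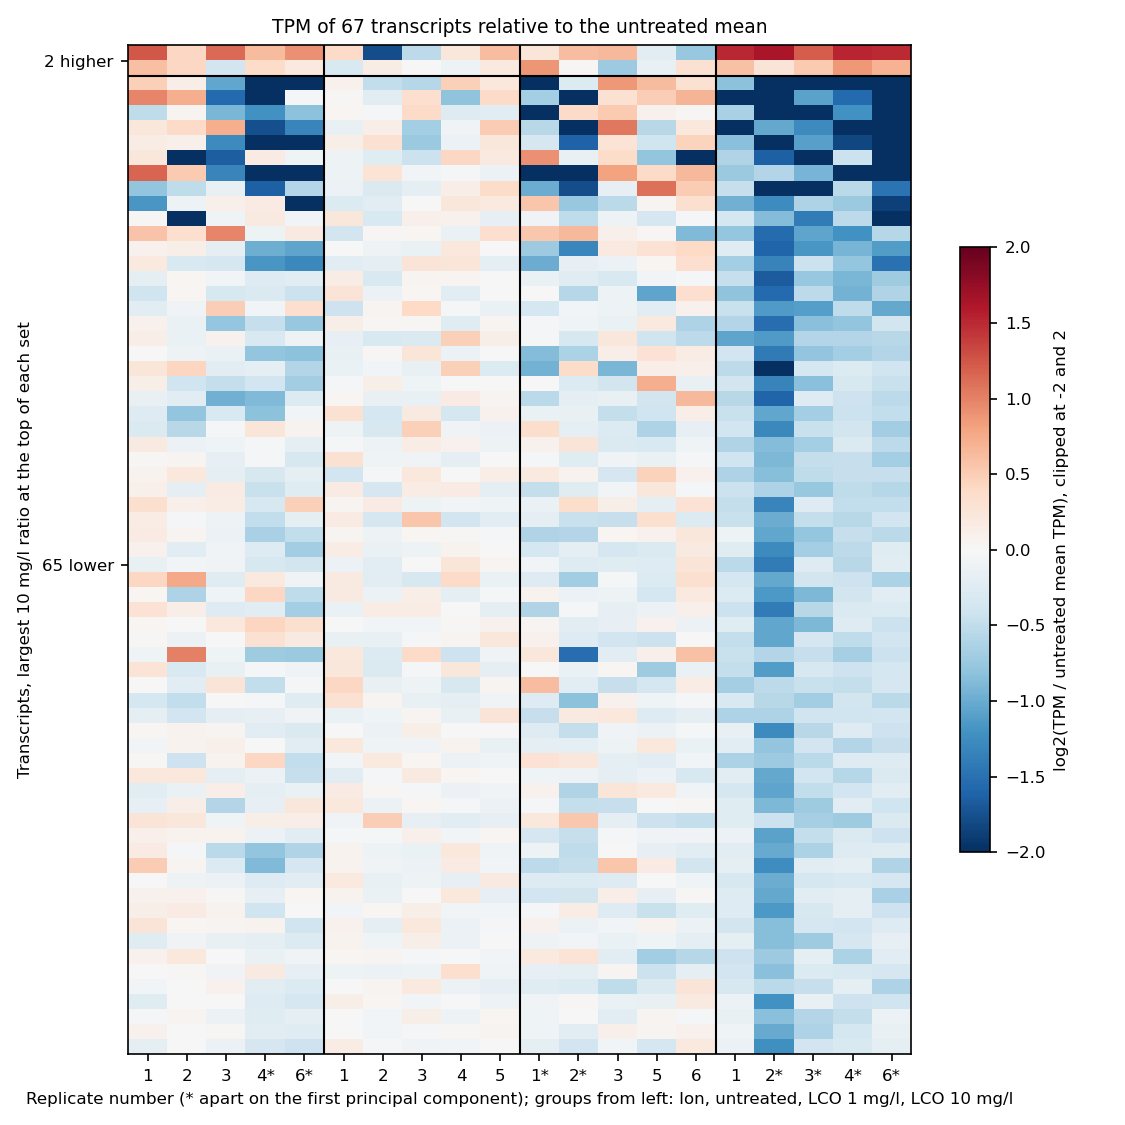
Log2 ratio of each library's TPM to the untreated mean (colour, clipped at -2 and 2) for the 2 higher and 65 lower transcripts in rows and the 20 libraries in columns, with asterisks on the 8 libraries apart. Among the 10 mg/l columns, that of replicate 2 is the darkest, with 43 of 65 lower transcripts under 50% of their untreated mean, and the uppermost of the lower rows are dark also in some Ion and 1 mg/l columns.

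The 10 transcripts with a log2 ratio of -1 or below were, by their medians, shorter, scarcer and more uneven between pools than the other 55. This split uses the 10 mg/l ratio that chose the members, and the rule may favour even untreated values. A coefficient of variation also grows as its mean nears 0, so these differences are a description only. The 10 steep transcripts were a mixed group, with lengths of 128 to 2947 bases and coefficients of variation at LCO 10 mg/l of 30.8% to 138%. Their median length was 761 bases, against 1181 bases in the other 55, and their median abundance over 20 libraries was 2.71 TPM, against 5.12 TPM. The median coefficient of variation over these 10 was 79.0% at LCO 10 mg/l, 62.6% at LCO 1 mg/l, 63.9% under Ion and 21.5% in untreated larvae. In 5 of them at least 1 library at 10 mg/l was listed at 0, against 0 of the other 55. Each of the 10 had a 1 mg/l library and an Ion library that reached into its 10 mg/l range. Of the 9 tested, edgeR called 0 at LCO 10 mg/l against untreated (adjusted p 0.0801 to 0.299), and 6 had an unadjusted p under 0.05, as did 21.6% of all transcripts. DESeq2 called 2 of them and limma-voom 0, beside 13.7% and 5.77% of all transcripts, while the 21 edgeR calls were all among the other 55.

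The largest ratio belonged to ENSDART00000191216.1, 931 bases long. It had 3.01, 2.3e-06, 0, 0.428 and 1.11 TPM at LCO 10 mg/l, against 5.62, 3.79, 3.58, 7.39 and 6.17 TPM in untreated larvae. LCO 1 mg/l libraries had 0, 4.41, 9.67, 8.24 and 6.56 TPM, and Ion libraries 7.40, 5.82, 2.58, 2.0e-07 and 0 TPM. Pools at or next to 0 thus occurred in all 3 exposed groups, and 3 pools at 1 mg/l and 2 under Ion were at or above the untreated mean. Estimated counts were 0 to 69 per library at LCO 10 mg/l and 85 to 265 in untreated larvae. They were whole in 5 of 20 libraries. Counts that are not whole come from dividing reads among similar transcripts, and the part of that division in the values next to 0 was not tested. The log2 fold change of LCO 10 mg/l over untreated was -2.57 with an SE of 1.15 (edgeR adjusted p = 0.20).

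ENSDART00000154614.2, 349 bases long, was similarly uneven. It had 0, 0.897, 1.95, 1.39 and 0 TPM at LCO 10 mg/l, against 4.17, 3.47, 5.13, 2.34 and 5.30 TPM in untreated larvae. Low pools were also present at LCO 1 mg/l, where replicate 2 had 0.618 TPM, and under Ion, where replicates 3 and 4 had 1.38 and 0.975 TPM. The remaining pools of those groups had 2.56 to 8.06 TPM. These values rest on few reads, with 0 to 11 estimated counts per library at 10 mg/l and 16 to 57 in untreated larvae, and the fold change of -2.13 (SE 0.82) did not pass (edgeR adjusted p = 0.130).

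ENSDART00000170284.2, 591 bases long, had the lowest ratio of Ion to untreated among the lower transcripts. It had 11.3, 11.0, 4.22, 1.32 and 1.75 TPM under Ion, against 11.1, 12.6, 6.09, 9.43 and 12 TPM in untreated larvae. The 10 mg/l libraries had 5.73, 2.35, 4.81, 2.90 and 1.23 TPM, and those at 1 mg/l 8.13, 3.32, 12.3, 7.78 and 14.0 TPM. Ion replicates 1 and 2 lay in the untreated range, and replicates 3, 4 and 6 in the 10 mg/l range, of which replicate 3 does not stand apart on the first principal component. Neither LCO 10 mg/l (log2 fold change -1.52, SE 0.55, edgeR adjusted p = 0.106) nor Ion (-0.89, adjusted p = 0.583) passed against untreated.

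Over the 10 steep transcripts, the library medians were uneven within each exposed group. At 10 mg/l they were 58.2% of the untreated mean in replicate 1, and 27.5%, 39.5%, 38.7% and 12.7% in replicates 2, 3, 4 and 6, which stand apart. At 1 mg/l they were 65.5% and 45.7% in replicates 1 and 2, which stand apart, and 105.3% to 126.5% in the other 3. Under Ion they were 30.9% and 48.2% in replicates 4 and 6, which stand apart, 50.8% in replicate 3, and 113.7% and 105.7% in replicates 1 and 2. Within each exposed group the lowest median was in a library that stands apart. Ion replicate 3 and LCO 10 mg/l replicate 1, which do not, were low as well, the latter as the rule required. The part of that split in the difference at 10 mg/l was not tested.

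Among the 55 shallower transcripts, ENSDART00000190477.1 (1964 bases) had the lowest adjusted p both against LCO 1 mg/l and against untreated larvae. It had 4.65, 2.02, 3.80, 3.40 and 3.9 TPM at LCO 10 mg/l, against 5.82, 5.42, 5.17, 6.16 and 6.22 TPM at LCO 1 mg/l. Ion libraries had 5.58, 6.60, 6.12, 5.35 and 5.44 TPM, and untreated libraries 7.10, 5.19, 6.63, 6.66 and 6.37 TPM. All 5 libraries at 10 mg/l lay below all 15 others, and the other 3 groups overlapped.

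This transcript averaged 3.55 ± 0.968 TPM at LCO 10 mg/l, 5.76 ± 0.459 at LCO 1 mg/l, 5.82 ± 0.528 under Ion and 6.39 ± 0.721 in untreated larvae (SD, n = 5 each). It fell at LCO 10 mg/l relative to LCO 1 mg/l by the edgeR test (log2 fold change -0.58, SE 0.12, adjusted p = 0.0475), and was just short of the threshold against Ion (-0.56, SE 0.12, adjusted p = 0.0522). Against untreated larvae the log2 fold change was -0.79 (SE 0.12, adjusted p = 0.00106). With 1 library left out, the call against LCO 1 mg/l was kept in 5 of 20 cases, those without LCO 10 mg/l replicate 1, LCO 1 mg/l replicate 3, Ion replicate 2 or 4, or untreated replicate 2. In the other 15 the adjusted p exceeded the threshold, up to 0.153, and the log2 fold change over all 20 cases was -0.66 to -0.52.

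ENSDART00000188531.1, 1204 bases long, was the lower transcript with the highest ratio of Ion to untreated. It had 0.680, 0.402, 0.563, 0.505 and 0.785 TPM at LCO 10 mg/l, against 1.73, 1.47, 2.31, 1.09 and 1.32 TPM under Ion. Untreated libraries had 0.910, 1.19, 1.2, 1.07 and 1.47 TPM, and LCO 1 mg/l libraries 1.7, 1.82, 1.25, 1.2 and 0.632 TPM. All 10 mg/l libraries lay below all Ion and all untreated libraries, but LCO 1 mg/l replicate 6 fell within their range. Counts were low, at 12 to 21 per library at LCO 10 mg/l and 33 to 86 in untreated larvae.

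It fell at LCO 10 mg/l relative to Ion (log2 fold change -1.29, SE 0.25, edgeR adjusted p = 0.0460), but not relative to LCO 1 mg/l (-1.02, SE 0.25, adjusted p = 0.121). Ion over untreated was 0.34 (adjusted p = 0.665). The value against untreated larvae was -0.95 (SE 0.25, adjusted p = 0.0310). That call was lost without any of LCO 10 mg/l replicates 2, 3, 4 and 6 or untreated replicates 2, 3, 4 and 5 (adjusted p up to 0.0820).

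The next highest ratio of Ion to untreated among those named belonged to ENSDART00000168371.2 (1514 bases). It averaged 2.17 ± 0.388 TPM at LCO 10 mg/l, 2.84 ± 0.735 at LCO 1 mg/l, 3.75 ± 1.06 under Ion and 3.15 ± 0.664 in untreated larvae (SD, n = 5 each). Ion replicate 2 was its highest library, at 5.32 TPM, and the other Ion libraries had 2.65 to 4.17 TPM. Neither LCO 10 mg/l (log2 fold change -0.46, SE 0.21, edgeR adjusted p = 0.218) nor Ion (0.15, adjusted p = 0.847) passed against untreated.

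The most abundant of the lower transcripts, ENSDART00000056319.4 (415 bases), had 425, 219, 331, 376 and 345 TPM at LCO 10 mg/l, against 447, 448, 496, 441 and 472 TPM in untreated larvae. LCO 1 mg/l libraries had 366, 335, 455, 439 and 441 TPM, and Ion libraries 492, 485, 482, 423 and 394 TPM. In both groups the libraries that stand apart, replicates 1 and 2 at 1 mg/l and replicates 4 and 6 under Ion, had the lowest values, below the untreated range. LCO 1 mg/l replicates 5 and 6, which do not stand apart, were also just below that range, at 439.1 and 440.9 TPM against an untreated minimum of 441.5 TPM. Its counts, 1612 to 3907 per library at 10 mg/l, were whole in all 20 libraries, as counts are when no read is divided among transcripts.

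Its log2 fold change of LCO 10 mg/l over untreated was -0.42 (SE 0.12, edgeR adjusted p = 0.0463). That call sat at the threshold: with 1 library left out, it was kept in 6 of 20 cases, those without LCO 10 mg/l replicate 1, LCO 1 mg/l replicate 1, 2, 5 or 6, or Ion replicate 4 (adjusted p over all 20 cases 0.0259 to 0.127). The second most abundant, ENSDART00000184237.1 (1390 bases), had 253, 124, 187, 209 and 254 TPM at LCO 10 mg/l, against 333, 273, 279, 314 and 298 TPM in untreated larvae. Its log2 fold change was -0.50 (SE 0.14, edgeR adjusted p = 0.0383), a call lost without LCO 10 mg/l replicates 2, 3, 4 or 6, or untreated replicates 1, 3, 4 or 5 (adjusted p up to 0.114).

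Replicate 2 weighed most on the lower transcripts in the deposited TPM. It was the lowest of the 10 mg/l libraries for 48 of the 65, against 1 to 7 for each other replicate and 1 tie. The median over the 65 transcripts was 74.7%, 48.4%, 68.2%, 72.6% and 72.8% of the untreated mean in LCO 10 mg/l replicates 1, 2, 3, 4 and 6. It was 84.8% to 99.0% in the LCO 1 mg/l libraries, 84.3% to 105.4% in the Ion libraries, and 93.7% to 102.9% in the untreated ones.

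A recentred TPM was therefore computed, in which each library is divided by the median, over the 28682 transcripts, of its ratio to the untreated mean. On that scale the 5 libraries at 10 mg/l drew together, at 71.7%, 69.8%, 73.8%, 72.5% and 66.2%. The 1 mg/l libraries spread out, at 81.9% and 75.4% in replicates 1 and 2, which stand apart, and 91.5%, 91.9% and 99.7% in replicates 3, 5 and 6. Ion libraries were at 77.6% and 77.7% in replicates 4 and 6, which stand apart, and 89.4% to 99.9% in replicates 1, 2 and 3. All 5 untreated libraries were between 95.2% and 102.6%. LCO 10 mg/l replicate 1, which does not stand apart, was at 71.7%, within the range of the 4 that do. The rule had already required every 10 mg/l library to lie below all untreated ones in TPM, so nothing is read from this.

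**Figure D3:**
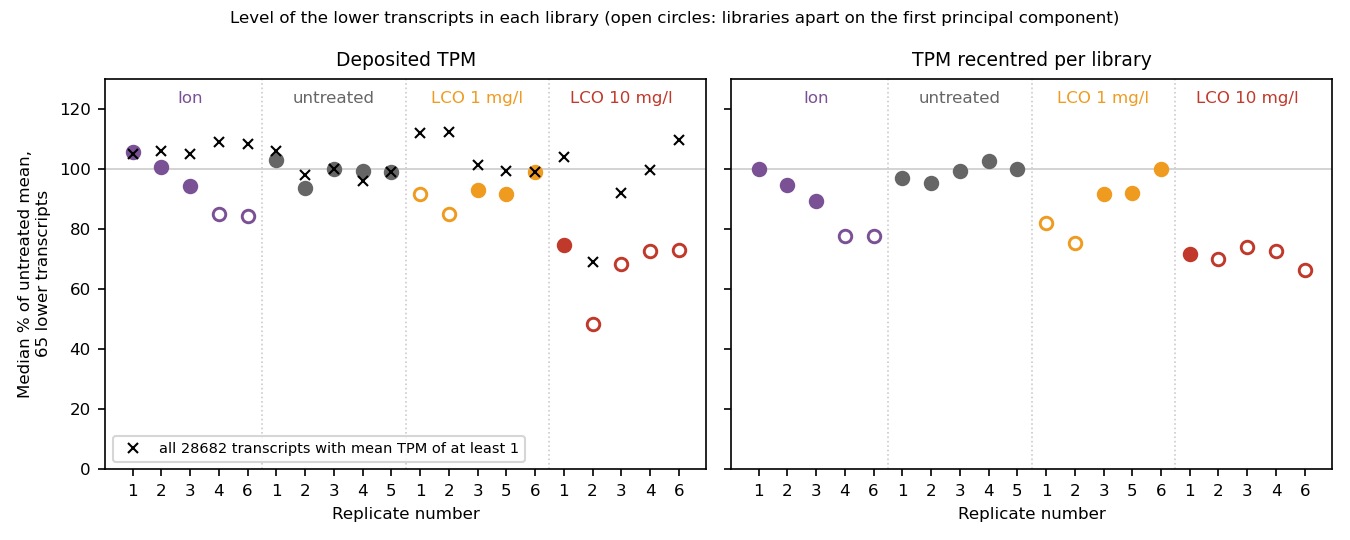
Median over the 65 lower transcripts of TPM as a percentage of the untreated mean (vertical axis) in each library, on deposited TPM (left, with crosses for the median over 28682 transcripts) and after recentring (right). Replicate 2 at 10 mg/l is at 48.4% on the left and 69.8% on the right, and open circles mark the libraries apart on the first principal component.

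Closeness of the 1 mg/l mean to untreated larvae depended on the scale. The median of all transcripts lay at log2 ratios of 0.10 for LCO 1 mg/l, 0.10 for Ion and -0.06 for LCO 10 mg/l in TPM, so a ratio near 0 in TPM lay below that of the typical transcript at 1 mg/l. Relative to that median, the lower transcripts were at -0.48 at LCO 10 mg/l, -0.21 at LCO 1 mg/l and -0.20 under Ion. On CPM scaled by TMM, the same differences were -0.49, -0.20 and -0.19, and on recentred TPM -0.49, -0.20 and -0.20. In TPM, 0 of the 65 had a 1 mg/l ratio below -0.2, as the rule requires, beside 19.7% of all transcripts. Members below -0.2 numbered 28 on the TMM scale and 26 on recentred TPM, where the share over all transcripts was not computed. ENSDART00000190477.1 was among them, at -0.213 on the TMM scale and -0.214 on recentred TPM, against -0.150 in TPM. It thus met the rule in TPM but on neither of the other scales.

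Separation at 10 mg/l shifted too. The rule had set all 5 libraries at 10 mg/l below all untreated ones in TPM, where 5.48% of all transcripts were so separated. This separation remained in 49 of the 65 on the TMM scale and in 45 on recentred TPM. The share of all transcripts so separated was not computed on either of these scales. These counts describe the change of scale only and carry no test of the set. Applied to those scales, the rule gave 38 lower transcripts on the TMM scale, of which 23 were shared (35.4% of the 65 and 60.5% of the 38). On recentred TPM it gave 28, of which 21 were shared (32.3% of the 65 and 75% of the 28). Both higher transcripts met the rule on all 3 scales, but it gave 18 and 19 higher transcripts on the other 2. The 20 lower transcripts that met the rule on all 3 scales had median log2 ratios in TPM of -0.77 at LCO 10 mg/l and -0.05 at LCO 1 mg/l. Of the 20, edgeR called 5 at 10 mg/l against untreated, a comparison that the rule used, beside 3.99% of all transcripts called lower.

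The direct comparison of the doses left most of these transcripts uncalled, so the set is not shown to differ at 10 mg/l alone. The edgeR test called 1 of the 64 lower transcripts lower at LCO 10 mg/l than at LCO 1 mg/l, ENSDART00000190477.1, which was the 1 transcript called lower among all 39355 (0.00254%). It called 0 of the 2 higher ones, beside 0.211% of all transcripts called higher, where limma-voom also called 0. At an unadjusted p under 0.05, 31 lower and both higher transcripts differed, and DESeq2 called 5 in all, the higher transcript ENSDART00000183797.1 among them. Over all transcripts, 8.33% had an unadjusted p under 0.05, 0.0534% were called by limma-voom and 1.31% by DESeq2. Log2 fold changes of LCO 10 mg/l over LCO 1 mg/l were below 0 in 64 of 64 lower transcripts, with a median of -0.33, a direction that the choice of members largely sets.

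In TPM, the 10 mg/l libraries lay below all 5 of the 1 mg/l libraries in 11 of the 65, where the background was 0.924% of transcripts, and in 54 of 65 at least 1 library at 1 mg/l reached into the 10 mg/l range. They lay above all 5 of the 1 mg/l libraries in 1 of the 2 higher ones, beside 0.289%.

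Against untreated larvae, LCO 1 mg/l gave 0 calls among the 66 tested by edgeR, where 8.41% of all transcripts were called lower and 4.34% higher. At an unadjusted p under 0.05 it gave 5, all lower, beside 25.1% of all transcripts, and DESeq2 and limma-voom also gave 0 calls, beside 18% and 13.3%. The rule kept out transcripts with a large ratio at 1 mg/l, so this 0 is set by the choice. The 1 mg/l ratio in TPM was below 0 in 54 of the 65, as in 36.2% of all 28682 transcripts, and all 5 libraries at 1 mg/l were inside the untreated range in 2. In 0 of the 65 were all 5 below the untreated range, beside 7.12%, and in 0 of the 2 higher ones all 5 above, beside 5.52%.

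The number of lower transcripts with Ion means close to those of untreated larvae depended on the scale, and in TPM was near the background share. On the TMM scale the log2 ratio of Ion to untreated was within 0.2 in 30 of the 65 and below -0.2 in 34. On recentred TPM these counts were 32 and 32. The shares over all transcripts were not computed on either of these scales. In TPM the log2 ratio of Ion to untreated was within 0.2 in 42 of the 65, below -0.2 in 20 and above 0.2 in 3, where all 28682 transcripts had shares of 61.4%, 9.41% and 29.2%. It was below 0 in 52 of the 65, beside 29.5% of all transcripts, and -0.4 or below in 9, beside 3.4%. All 5 Ion libraries lay below all untreated ones in 1 transcript, where the background was 0.858%, and above them in 0 of the 2 higher ones, beside 4.23%. Both higher transcripts were also higher under Ion in mean TPM, with log2 ratios of 0.90 and 0.28. The median log2 ratio of Ion was -0.44 over the 10 steep transcripts and -0.09 over the other 55. The rule favoured high untreated values in the lower transcripts and low ones in the 2 higher ones. This comparison shares the untreated libraries, so nothing is read from the direction of these ratios.

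The edgeR test of Ion against untreated called 0 of the 66 tested, beside 0.028% of all transcripts called lower and 0.00762% called higher. At an unadjusted p under 0.05 it gave 12 lower and 1 higher, limma-voom called 0 and DESeq2 called 1. Over all transcripts, 10% had an unadjusted p under 0.05, limma-voom called 0.0737% and DESeq2 1.38%.

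Compared with each other, LCO 10 mg/l was called lower than Ion in 2 of the 64 lower transcripts, beside 0.0483% of all transcripts, and higher in 0 of the 2 higher ones, beside 0.122%. At an unadjusted p under 0.05, 20 lower and both higher transcripts differed, and the count was 6 with DESeq2 and 0 with limma-voom. Over all transcripts, the shares were 11.3% at an unadjusted p under 0.05, 2.77% with DESeq2 and 0.112% with limma-voom. The median log2 fold change of LCO 10 mg/l over Ion was -0.28 over the 64, with 63 below 0.

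One of those 2 calls is ENSDART00000188531.1, and the other is ENSDART00000001331.10, named here because it was called. It had 3.02, 1.74, 1.92, 2.99 and 2.64 TPM at LCO 10 mg/l, against 3.67, 3.58, 4.13, 4.82 and 4.47 TPM under Ion (log2 fold change -0.58, SE 0.11, edgeR adjusted p = 0.0465). All 10 mg/l libraries lay below all Ion libraries, and the highest Ion values were those of replicates 4 and 6, which stand apart. Untreated libraries had 3.42 to 3.78 TPM and LCO 1 mg/l libraries 3.04 to 3.77 TPM. With 1 library left out, the call of ENSDART00000188531.1 against Ion was kept in 4 of 20 cases, those without LCO 1 mg/l replicate 2, 3 or 6 or untreated replicate 1 (adjusted p up to 0.115 in the others). That of ENSDART00000001331.10 was kept in 5, those without LCO 10 mg/l replicate 1, LCO 1 mg/l replicate 2, 3 or 5, or Ion replicate 2 (up to 0.120).

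LCO 10 mg/l libraries lay below all 5 Ion libraries in 18 of the 65 lower transcripts, where 4.13% of all transcripts did, and above them in 0 of the 2 higher ones, beside 0.0453%. In 7 of the 65 they lay below all 15 other libraries, as did 9 (0.0314%) of all 28682. Membership already fixes the separation from the untreated libraries, so neither count is support for the set.

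**Figure D4:**
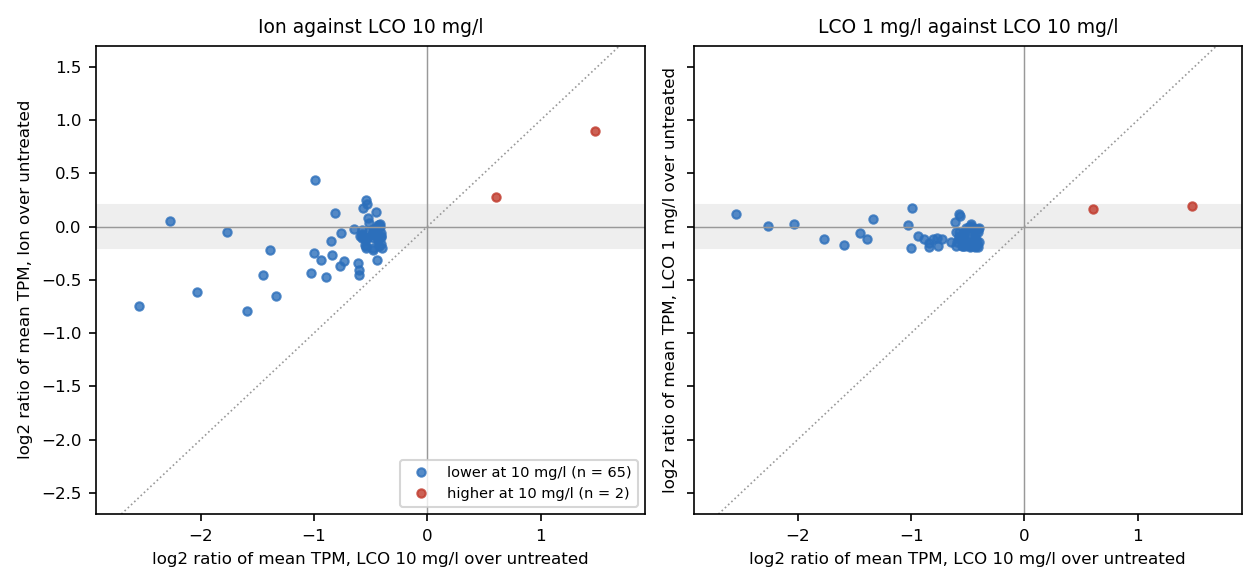
Log2 ratio of mean TPM to the untreated mean at 10 mg/l (horizontal axes) against that of Ion (left) and LCO 1 mg/l (right) for the 2 higher and 65 lower transcripts, with a grey band for ratios within 0.2 and a dotted line of equal ratios. The 1 mg/l ratios are inside the band by the rule, while 20 lower transcripts are below it under Ion; the axes share the untreated libraries.

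Beyond the rule, the lower transcripts were shorter than transcripts in general. Their median length was 1127 bases (quartiles 854 and 1725, range 128 to 8179), against 1818 bases (996 and 3063) over all 28682, with 5 under 500 bases and 7 of 3000 or more. Their abundance was ordinary, with a median of 4.40 TPM against 4.88 TPM, and 35 of 65 had a mean under 5 TPM and 15 a mean of 10 TPM or more. Values for short transcripts depend on the fragment lengths of a library, because the deposited effective length is the length less a gap set by them. That gap, taken as the median over transcripts longer than 3000 bases, was 162 ± 3.6 bases at LCO 10 mg/l, 161 ± 4.39 at LCO 1 mg/l, 158 ± 6.06 under Ion and 152 ± 5.98 in untreated larvae (SD, n = 5 each). It does not hold for the shortest transcripts. The member of 128 bases had a mean effective length of 23.9 bases at LCO 10 mg/l and 21.8 bases in untreated larvae. The edgeR test used counts and not effective lengths. Since the gap also differed between the groups, its part and that of treatment cannot be told apart in a fit that holds both. With the gap as a covariate, the count of calls among these transcripts at LCO 10 mg/l against untreated was 1, and 22 without it. Calls over all transcripts fell as well, to 207 (0.526%) with the covariate, against 2470 (6.28%) without it.

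Most of the lower transcripts shared reads with others. Estimated counts were whole, within 0.001, in all 20 libraries for 6 of the 65, in some for 15 and in none for 44. Over all 28682 transcripts, 17.1% had whole counts in all 20. Counts that are not whole come from dividing a read among similar transcripts, so a lower value there may be a lower gene output or a different division, which cannot be told apart here. The median transcript had 92 estimated counts in the median library at LCO 10 mg/l, against 181 in untreated larvae, and 8 of the 65 had a 10 mg/l library under 10 counts.

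Calls at LCO 10 mg/l against untreated were uneven over libraries as well. The count was 22 with all libraries, 5 without LCO 10 mg/l replicate 2, 12 without replicate 3, 11 without replicate 4 and 4 without replicate 6. It was 9, 8 and 7 without untreated replicates 3, 4 and 5 in turn. Calls over all transcripts, 2470 with all libraries, were likewise fewer, at 1296, 1557, 1895 and 1356 without LCO 10 mg/l replicates 2, 3, 4 and 6 in turn, and 1215, 1212 and 1655 without the 3 untreated ones. When all 8 libraries that stand apart were left out, the count was 0, with 1 library at 10 mg/l and 3 each at 1 mg/l and under Ion. In that setting 33 of all 43144 transcripts tested (0.0765%) were called. The median log2 ratio of the lower transcripts in TPM was -0.58 over the 4 libraries at 10 mg/l that stand apart and -0.41 in the 1 that does not. The rule required all of these to lie below the untreated libraries. At 1 mg/l it was -0.19 over the 2 that stand apart and -0.06 over the other 3, and under Ion -0.24 and -0.02 over 2 and 3 libraries.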

How the data were processed

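RNA was sequenced from 20 pools of whole larvae in 4 groups of 5. The submitters' processing notes name kallisto 0.45.0, cutadapt 1.18, FastQC 0.11.5 and build GRCz11, and their settings are not given in the sources used here. The authors deposited estimated counts (expected counts from kallisto, which need not be whole), TPM and effective lengths per Ensembl transcript. The deposited TPM values chose the transcripts and describe their levels. Members, lists and rules were chosen with earlier results of these data known.

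Estimated counts were rounded and tested with edgeR 4.0.16 in R 4.3.3 (filterByExpr with a minimum count of 10, TMM, 1 quasi-likelihood fit over 20 libraries, glmQLFTest, two-sided), with calls at a Benjamini-Hochberg adjusted p under 0.05 over the 39355 kept transcripts, and the lowest share of a library's counts kept was 99.9%. DESeq2 1.42.0 and limma 3.58.1 (limma-voom) were alternatives. The SE is the log2 fold change divided by the square root of F. The edgeR steps were run on simulated counts with changes larger than those of most lower transcripts here. The simulation did not include the split on the first principal component, so it is no check of the smaller changes in these data. Depth ranged from 24950529 to 63120039 estimated counts per library, and transcripts with few counts carry the largest counting error.

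Transcripts were named, 2 per direction at most for each criterion, by the largest 10 mg/l ratio, the highest mean TPM, the Ion ratio most extreme in either direction, and the lowest adjusted p between the doses. The 12 gene lists drawn up for metal handling, stress, tissues and immunity could not be used, and larval tissue markers could not be checked, since 0 identifiers matched a gene table. Over 40 pairs of libraries within groups, 0 were identical and the lowest chi-square per degree of freedom was 11.4. The recentred TPM, the selection rule without the 8 libraries apart, and the tests without LCO 10 mg/l replicates 2 and 3 were added after seeing the data.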

Additional observations from a re-analysis of the deposited data

Results flagged for a closer look

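The median level of the 65 lower transcripts was 48.4% of the untreated mean in LCO 10 mg/l replicate 2, far from the 68.2% to 74.7% of the other 4 libraries at that dose. Its gap to the nearest library exceeded 0.71 of the group's range, Dixon's critical value for 5 samples. This was 1 of 48 groups of values looked at, and chance marks about 1 in 20. That library is also the one in which ENSDART00000182970.1 took 25.1% of TPM. After recentring, it stood at 69.8%, between the other 4 libraries at 66.2% to 73.8%.

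Among the transcripts named by the naming criteria, effects that differed between exposed groups by a direct edgeR test were those of ENSDART00000190477.1, with a log2 fold change of -0.58 for LCO 10 mg/l over LCO 1 mg/l (adjusted p = 0.0475), and of ENSDART00000188531.1, with -1.29 for LCO 10 mg/l over Ion (adjusted p = 0.0460). The only other call among the 65 in these 2 comparisons, ENSDART00000001331.10, was also against Ion, with -0.58 (adjusted p = 0.0465). All 3 adjusted p-values lay close to the threshold. The rule used both doses, and ENSDART00000190477.1 was named for the lowest adjusted p between them, so its call is no support for the set. Its 1 mg/l ratio was also beyond the bound on the TMM scale and on recentred TPM. The calls against Ion use the 10 mg/l libraries that chose the members, and ENSDART00000188531.1 was named for its high Ion ratio.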

How the results depend on the processing

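The selection moved with most settings. The 65 lower transcripts became 38 on TMM-scaled CPM, 28 on recentred TPM, 30 with a mean of at least 5 TPM, 23 with a threshold of 0.6, 24 with a 1 mg/l bound of 0.1, 26 with the doses exchanged, 5 with Ion in place of LCO 10 mg/l and 448 without the 8 libraries apart. With no floor there were 92, and with log2(TPM + 1) 47. The 2 higher ones became 18, 19, 0, 2, 0, 121, 62 and 771 under the same 8 settings in that order, 3 with no floor and 4 with log2(TPM + 1). Leaving out 1 library gave 44 to 398 lower transcripts (398 without LCO 10 mg/l replicate 1, 156 without replicate 6, 114 without replicate 4, 44 without replicate 2) and 1 to 20 higher ones (20 without LCO 10 mg/l replicate 2); separation is easier with fewer libraries by construction.

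The 22 calls of LCO 10 mg/l against untreated were 20 with RLE size factors, 18 with no filter and 17 with limma-voom, but 9 with a replicate block, 1 with the fragment length gap as covariate, 0 without the 8 libraries apart, 3 without LCO 10 mg/l replicates 2 and 3, 36 with only the 2 groups and 42 with DESeq2 (4 to 24 with 1 library left out). LCO 1 mg/l against untreated gave 0 calls, 2 without the 8 libraries apart and 0 to 1 with 1 left out. Ion against untreated gave 0, 1 with DESeq2 and 0 in every case with 1 left out. The 1 call between the doses was kept with RLE factors and the gap, was 5 with DESeq2, and 0 with no filter, the block, only the 2 groups, limma-voom, or either set of libraries left out (0 to 2 with 1 left out). The 2 calls against Ion were 2 with RLE factors, 1 with the block, 6 with DESeq2, and 0 with no filter, the gap, only the 2 groups, limma-voom, or either set left out (0 to 3 with 1 left out). Calls over all transcripts also moved with the setting. For LCO 10 mg/l against untreated they were 6.28% of those tested in the main fit. The share was 6.5% with RLE size factors, 3.56% with no filter, 5.77% with limma-voom and 4.56% with the replicate block. It was 0.526% with the gap, 1.39% without LCO 10 mg/l replicates 2 and 3, 8.15% with only the 2 groups and 13.7% with DESeq2. With 1 library left out it was 3.05% to 7.62%. The cause of these changes was not tested. The median log2 ratio of the lower transcripts at 10 mg/l, -0.54 in TPM, was -0.50 on TMM-scaled CPM, -0.48 recentred, -0.41 without the 8 libraries apart and -0.45 without replicate 2. Among named transcripts, 1 value changed sign, that of ENSDART00000168371.2 under Ion, which was -0.0099 without Ion replicate 2 (adjusted p = 0.991) and -0.0099 to 0.28 over all cases with 1 library left out (adjusted p 0.725 to 0.991).

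No clear pairing by replicate number was seen. Over 25 same-numbered pairs the correlation of deviations from group means ran from -0.356 to 0.310, 6 exceeded 0.1, and 4 of 20 libraries correlated best with their own number. These deviations include the split on the first principal component, and the labels do not settle pairing, so the check cannot exclude it. The replicate block is given only as an alternative fit. Depth limits the scarce transcripts, 8 of which had under 10 counts in a 10 mg/l library.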
